A study of Mus musculus with 12 samples.

Results

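The erythroid lineage genes described here are 9 genes listed by name: the transcription factor genes Gata1, Klf1 and Zfpm1, the carbonic anhydrase genes Car1 and Car2, the transferrin receptor gene Tfrc, the heme synthesis gene Alas2 and the globin genes Hba-a1 and Hbb-bt. They were looked up by symbol among 46103 genes, with numbered copies of a gene summed; each of the 9 was listed once, and all 9 passed the filter on low values that left 10072 genes for testing. The genes were measured by RNA-seq in leukemic stem and progenitor cells of a mouse model of chronic myeloid leukemia (CML). Bone marrow cells of C57BL/6 mice were transduced with a retrovirus carrying BCR-ABL1 and given to lethally irradiated recipients. The donor cells also carried G0M, a fluorescent marker of the G0 phase whose Rosa26 allele is switched on by Vav1-Cre, which acts in blood cells.

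All 4 groups were BCR-ABL1+ and CD27+ and lay in the c-Kit+ Sca-1+ lineage-negative (KSL) gate, sorted from bone marrow and spleen. DP cells were G0M+ and SP cells G0M- from vehicle-treated mice, and IMDP cells were G0M+ and IMSP cells G0M- from mice that received imatinib, which blocks the kinase made by BCR-ABL1, once a day by oral gavage. Each group held 3 libraries of 100 sorted cells, and nothing in the labels says whether the 3 came from separate mice, so the spread between them may be technical. The study's reporting summary describes the mice as young adult females. The stem cell gate was set with a lineage mix that contains TER-119, an antibody to maturing red cells. Total reads per library, recovered from the steps of the values, ran from 11367631 to 20573779.

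GATA1 is the master transcription factor of the erythroid lineage, and it also acts in megakaryocytes, mast cells and basophils. FOG1, the product of Zfpm1, is its partner, and KLF1 binds CACCC boxes in the promoters of red cell genes, adult β-globin among them. As erythroid progenitors mature, they take up iron through the transferrin receptor, make heme in a pathway that opens with ALAS2, and fill with hemoglobin built of α- and β-globin chains. Stem cells of the KSL gate lie before the commitment to any of these lineages, and low levels of lineage genes in such cells are often called priming.

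The β-globin gene Hbb-bt had the highest mean of the 9 genes over all libraries and was the one that passed the test. It was higher in G0M+ than in G0M- cells, while no member passed the test between imatinib and vehicle. Its neighbour Hbb-bs, the other adult β-globin gene of this strain, had another pattern across libraries, so the promoter sequences of both are shown here, with that of Hba-a1 for comparison. The sequences are from RefSeq on GRCm38.p6 and end at the base before the start that RefSeq annotates, and capitals mark GATA, CACCC and CCAAT matches on either strand. The Hbb-bt stretch lies at chr7:103813924-103814173 on the minus strand, the Hbb-bs stretch at chr7:103827929-103828178 on the minus strand and the Hba-a1 stretch at chr11:32283472-32283671 on the plus strand. The gene bounds of GENCODE M21, which are given for the members further on, begin upstream of these RefSeq starts, so part of each stretch lies within the GENCODE gene.
Hbb-bt: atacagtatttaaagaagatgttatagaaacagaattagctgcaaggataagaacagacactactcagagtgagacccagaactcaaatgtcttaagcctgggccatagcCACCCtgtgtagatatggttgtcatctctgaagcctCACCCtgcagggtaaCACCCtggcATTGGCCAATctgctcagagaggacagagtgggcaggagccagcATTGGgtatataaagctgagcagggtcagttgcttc
Hbb-bs: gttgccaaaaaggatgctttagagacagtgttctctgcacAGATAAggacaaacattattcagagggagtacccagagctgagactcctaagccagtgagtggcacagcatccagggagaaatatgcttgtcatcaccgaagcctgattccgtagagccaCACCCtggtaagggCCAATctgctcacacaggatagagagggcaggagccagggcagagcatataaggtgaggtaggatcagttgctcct
Hba-a1: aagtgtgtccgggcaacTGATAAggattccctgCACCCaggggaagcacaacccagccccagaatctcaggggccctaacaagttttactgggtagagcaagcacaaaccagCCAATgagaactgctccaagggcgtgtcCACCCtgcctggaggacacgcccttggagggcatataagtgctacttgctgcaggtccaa

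In the 250 bases before the start, Hbb-bs held the longer box CCACACCC at position -93 and a GATA match (AGATAA or else AGATAG, or else TGATAA, or else TGATAG) at -210, counted back from -1 at the base before the start. Hbb-bt held neither of these in the same window, and it held 3 CACCC matches, at -140, -104 and -89, and 3 CCAAT matches, at -80, -75 and -36. Hba-a1 held a GATA match at -183, CACCC at -167 and -60 and CCAAT at -88. Of 32851 RefSeq promoters of the same length, 26.5% held a GATA match, 52.0% CACCC, 3.2% CCACACCC, which contains CACCC, and 33.8% CCAAT. A match is a description of these letters and not a measured binding site. Aligned over the window, the promoters of the 2 β-globin genes were 77.4% identical, while those of Hba-a1 and Hba-a2 were 100.0% identical. The transcripts of Hbb-bt and Hbb-bs were 93.1% identical, and 58.3% of the 50-base windows of Hbb-bt were also in Hbb-bs, so reads from such windows cannot be told apart by their sequence. Hba-a1 and Hba-a2 were 99.8% identical, and 67.5% of the windows of Hba-a1 were in Hba-a2.

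Alas2 and Tfrc carry iron-responsive elements, hairpins bound by iron regulatory proteins that hold back translation when they lie before the coding part and protect the RNA when they lie after it. They are shown because these 2 members differed in opposite directions between G0M+ and G0M- libraries. The search asked for a loop beginning CAGTG on a paired stem with the usual unpaired C. It found 1 element in Alas2, in exon 1 of the 5′ untranslated region at chrX:150547459-150547485, and 4 in Tfrc, all in the last exon, exon 19 of 19, in the 3′ untranslated region between chr16:32631220 and chr16:32631737. Both are on the plus strand of GRCm38 (GENCODE M21), none was found in the first transcript of the other 7 members, and the loop is in capitals.
Alas2: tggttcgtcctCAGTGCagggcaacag
Tfrc element 1: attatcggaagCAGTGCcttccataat
Tfrc element 2: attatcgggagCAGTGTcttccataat
Tfrc element 3: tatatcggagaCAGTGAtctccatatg
Tfrc element 4: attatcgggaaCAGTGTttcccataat

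Levels are given as RPKM, reads per kilobase of the gene scaled to the total reads of the library, so that levels can be compared between genes. The mean over 12 libraries ran from 1.03 RPKM for Klf1 and 1.21 RPKM for Alas2 to 39.0 RPKM for Car2 and 100.0 RPKM for Hbb-bt. Differences are on the scale of log2(RPKM + 0.1), with the SE and the Benjamini-Hochberg adjusted p of limma over all 10072 genes tested and a threshold of 0.05. In the comparisons where the median of all genes lay more than 0.1 from 0, it was -0.25 between IMDP and IMSP, -0.17 between IMDP and DP and -0.13 between G0M+ and G0M-. It was also -0.25 in the interaction, which is the difference between IMDP and IMSP minus that between DP and SP. In bulk samples fewer cells that express a gene and less RNA per cell cannot be told apart. Library numbers were lower in every imatinib library than in any vehicle library, so an effect of library number cannot be told apart from treatment either.

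**Figure D1:**
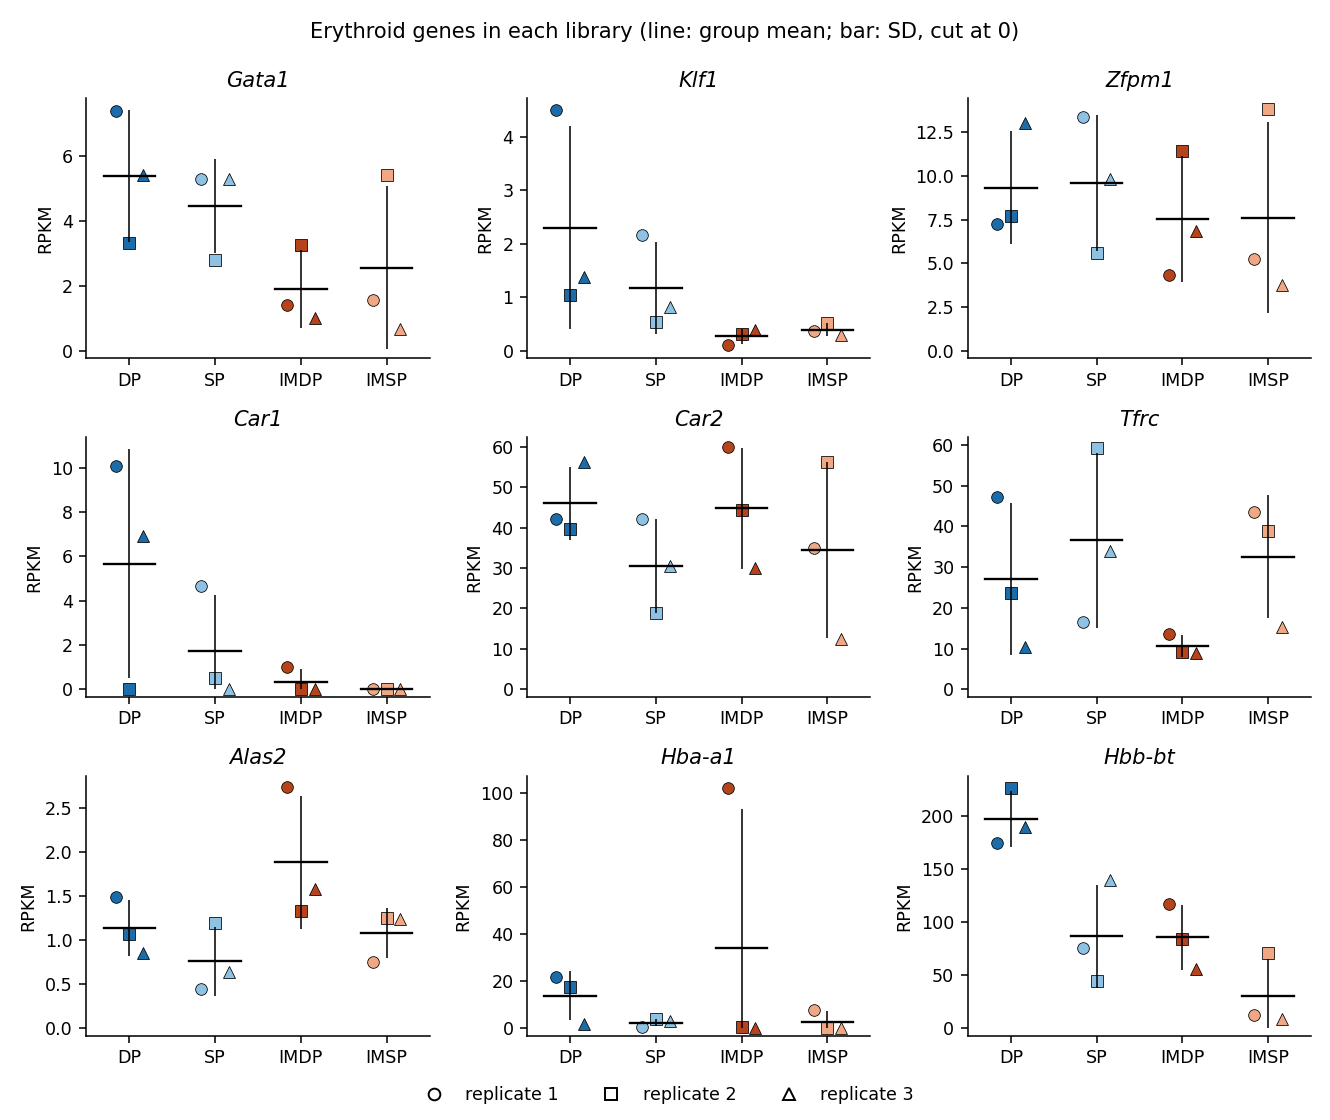
RPKM of the 9 erythroid genes (vertical axes) in the 3 libraries of DP, SP, IMDP and IMSP cells; lines are group means and bars the SD, with symbols for replicates 1 to 3. Hbb-bt was at 175 to 226 RPKM in DP cells and 9.06 to 70.5 RPKM in IMSP cells, and Hba-a1 reached 102 RPKM in 1 IMDP library.

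The transcription factor gene Gata1 (X chromosome, 7959260 to 7978071, minus strand, GRCm38) was at 7.37, 3.31 and 5.39 RPKM in DP1, DP2 and DP3 and at 5.26, 2.77 and 5.29 RPKM in SP1, SP2 and SP3. Under imatinib it was at 1.40, 3.26 and 1.01 RPKM in IMDP cells and at 1.57, 5.39 and 0.669 RPKM in IMSP cells. The IMDP libraries all lay below the DP libraries, as 19.0% of all genes tested did, but IMSP2 was as high as the vehicle libraries, and the order of the group means (DP, SP, IMSP, IMDP) rested on neighbours that overlapped. The difference between imatinib and vehicle, averaged over populations, was -1.37 ± 0.44 (log2, SE; 6 against 6 libraries) and did not pass the test (limma, adjusted p = 0.139). Without IMSP2 it was -1.75 and passed (limma, adjusted p = 0.0400). Between G0M+ and G0M- cells the difference was 0.07 ± 0.44 (limma, adjusted p = 0.921).

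Klf1 (chromosome 8, 84901928 to 84905291, plus strand) encodes the KLF1 factor and was low in every group. It was at 4.50, 1.04 and 1.37 RPKM in DP1 to DP3 and at 2.15, 0.538 and 0.823 RPKM in SP1 to SP3. It was at 0.101, 0.307 and 0.385 RPKM in IMDP cells and at 0.371, 0.516 and 0.290 RPKM in IMSP cells. All 6 imatinib libraries thus lay below all 6 vehicle libraries, a pattern in that direction shown by 0.635% of all genes tested. Klf1 passed the filter on low values only through vehicle libraries, so this order of its libraries is a description and not support for a difference. Klf1 was also the 1 member whose IMSP libraries all lay below the SP libraries, as 2.72% of all genes did. The nearest libraries across the gap were SP2 with 14 reads and IMSP2 with 9 reads, and the imatinib libraries held 2 to 10 reads of the gene. The average difference between imatinib and vehicle was -1.86 ± 0.44 and did not pass the threshold (limma, adjusted p = 0.0639), nor did the difference of -2.53 ± 0.62 between IMDP and DP cells (limma, adjusted p = 0.0793). For the average, the adjusted p ran from 0.0563 to 0.134 when 1 library was left out. Between populations the difference was 0.17 ± 0.44 (limma, adjusted p = 0.794).

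Zfpm1 (chromosome 8, 122282141 to 122337251, plus strand), which encodes FOG1, had the highest mean of the 3 factor genes at 8.51 RPKM. It was at 7.23, 7.70 and 13.04 RPKM in DP1 to DP3 and at 13.35, 5.58 and 9.84 RPKM in SP1 to SP3. It was at 4.31, 11.4 and 6.85 RPKM in IMDP1 to IMDP3 and at 5.26, 13.8 and 3.73 RPKM in IMSP1 to IMSP3. The 4 groups overlapped throughout, with differences of 0.05 ± 0.35 between populations (limma, adjusted p = 0.932) and -0.42 ± 0.35 between treatments (limma, adjusted p = 0.555). IMDP2 and IMSP2, which carry neighbouring library numbers, were the highest imatinib libraries for Zfpm1 and for Gata1. Over 12 libraries, log2 values of Gata1 had Pearson's r of 0.78 with Zfpm1 (Spearman's rho 0.75), 0.75 with Klf1 (rho 0.80) and 0.70 with Hbb-bt (rho 0.66), values that come from the same libraries and share their depth.

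Of the carbonic anhydrases, Car1 (chromosome 3, 14766216 to 14808368, minus strand) is the form that appears in erythroid progenitors, and Car2 (chromosome 3, 14886273 to 14900770, plus strand) is made in many blood cells as well as in red cells. Car1 had no read in 7 of 12 libraries, where a count of 0 allows up to 0.117 to 0.181 RPKM. It was at 10.1, 0 and 6.94 RPKM in DP1 to DP3 and at 4.66, 0.525 and 0 RPKM in SP1 to SP3. Under imatinib it was found in 1 of 6 libraries, IMDP1, at 1.01 RPKM from 19 reads. Vehicle libraries without the gene overlapped the imatinib libraries, and the average difference between treatments of -2.93 ± 1.26 did not pass (limma, adjusted p = 0.254), nor did that of 1.34 ± 1.26 between populations (limma, adjusted p = 0.442). Car2 was at 42.1, 39.5 and 56.4 RPKM in DP cells and at 42.2, 18.8 and 30.6 RPKM in SP cells. It was at 59.99, 44.3 and 30.0 RPKM in IMDP cells and at 34.9, 56.1 and 12.6 RPKM in IMSP cells. Its groups overlapped, with a difference of 0.61 ± 0.33 between populations (limma, adjusted p = 0.186) and -0.04 ± 0.33 between treatments (limma, adjusted p = 0.969).

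Tfrc (chromosome 16, 32608920 to 32632794, plus strand) encodes the receptor that takes up iron-laden transferrin, and it was the 1 member with a negative difference between G0M+ and G0M- cells. It was at 47.1, 23.6 and 10.3 RPKM in DP1 to DP3 and at 16.6, 59.3 and 33.9 RPKM in SP1 to SP3. Under imatinib it was at 13.7, 9.16 and 8.88 RPKM in IMDP cells and at 43.5, 38.8 and 15.3 RPKM in IMSP cells. The vehicle groups overlapped widely, while every IMDP library lay below every IMSP library, as 32.8% of all genes tested did in this comparison. The difference was -1.51 ± 0.57 between IMDP and IMSP cells (limma, adjusted p = 0.0713) and -1.01 ± 0.40 averaged over treatments (limma, adjusted p = 0.0817). The first passed without DP1, DP3 or IMSP3 (limma, adjusted p = 0.0468, 0.0475 and 0.0373), and the second without DP1, SP1 or IMSP3 (limma, adjusted p = 0.0271, 0.0471 and 0.0441). Between treatments it was -0.62 ± 0.40 (limma, adjusted p = 0.444).

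Alas2 (X chromosome, 150547375 to 150570638, plus strand) was at 1.48, 1.07 and 0.854 RPKM in DP1 to DP3 and at 0.442, 1.19 and 0.638 RPKM in SP1 to SP3. It was at 2.74, 1.32 and 1.58 RPKM in IMDP cells and at 0.748, 1.25 and 1.24 RPKM in IMSP cells. Each IMDP library lay above each IMSP library, as 6.21% of all genes tested did, and DP and SP cells overlapped. It was the 1 member with a positive difference between treatments, 0.58 ± 0.27 (limma, adjusted p = 0.285). The difference between populations was 0.65 ± 0.27 (limma, adjusted p = 0.0917), and these levels rested on 17 to 70 reads a library. After scaling each library to the same median it was 0.81 and passed the threshold (limma, adjusted p = 0.0448), as it did without SP2 (limma, adjusted p = 0.0492).

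Hba-a1 (chromosome 11, 32283511 to 32284465, plus strand) encodes an adult α-globin chain. It was at 21.8, 17.4 and 1.94 RPKM in DP1 to DP3 and at 0.522, 3.69 and 2.92 RPKM in SP1 to SP3. It was at 102, 0.601 and 0.106 RPKM in IMDP1 to IMDP3 and at 7.84, 0.157 and 0 RPKM in IMSP1 to IMSP3. Reads ran from 738 in IMDP1 to 1 in IMDP3 within the IMDP group and from 77 in IMSP1 to 0 in IMSP3 within the IMSP group. The groups overlapped in every comparison. The differences were 2.26 ± 2.10 between DP and SP cells (limma, adjusted p = 0.651), 2.06 ± 2.10 between IMDP and IMSP cells (limma, adjusted p = 0.489) and 2.16 ± 1.48 averaged over treatments (limma, adjusted p = 0.291). Without IMDP1 the difference between IMDP and IMSP cells was -0.63. Between treatments it was -1.81 ± 1.48 (limma, adjusted p = 0.551).

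Hbb-bt (chromosome 7, 103812524 to 103813996, minus strand) encodes an adult β-globin chain and had the highest mean of the 9 members in DP, SP and IMDP cells, while Car2 and Tfrc had higher means in IMSP cells. It was at 175, 226 and 190 RPKM in DP1 to DP3 and at 75.3, 44.6 and 140 RPKM in SP1 to SP3. Under imatinib it was at 117, 84.1 and 56.0 RPKM in IMDP cells and at 12.4, 70.5 and 9.06 RPKM in IMSP cells. DP libraries lay above all others, with a mean of 197 ± 26.5 RPKM (SD, n = 3), followed by SP cells at 86.6 ± 48.7 RPKM and IMDP cells at 85.7 ± 30.5 RPKM, which overlapped, and IMSP cells at 30.7 ± 34.6 RPKM, whose highest library reached into the IMDP range. In the comparison of DP with SP cells, 9.68% of all genes tested had their G0M+ libraries above all G0M- libraries in this way.

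Averaged over treatments, Hbb-bt was 3.21-fold higher in G0M+ than in G0M- cells, with a log2 difference of 1.68 ± 0.45 (6 against 6 libraries; limma, adjusted p = 0.0190), or 1.82 above the median of all genes. It was 1 of 9 members called, against 26.3% of all genes tested, and genes called higher in G0M+ cells made up 5.32% of all genes. Between IMDP and IMSP cells it was higher by 2.03 ± 0.64 (limma, adjusted p = 0.0361), again as 1 of 9 members against 25.6% of all genes, with 2.37% of all genes called higher. The 2 comparisons share the imatinib libraries. Between DP and SP cells the difference was 1.33 ± 0.64 (limma, adjusted p = 0.398), and 0 of 9 members were called, against 2.26% of all genes. The call between IMDP and IMSP cells was lost when any one of SP1, IMDP1, IMDP2, IMDP3, IMSP1 and IMSP3 was left out (limma, adjusted p from 0.0502 to 0.141) and when only these 2 groups entered the fit (limma, adjusted p = 0.0735), where Tfrc passed in its place (limma, adjusted p = 0.0351). It was also lost with no filter on low values (limma, adjusted p = 0.0682). The averaged call was lost without IMSP1 (limma, adjusted p = 0.0523).

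**Figure D2:**
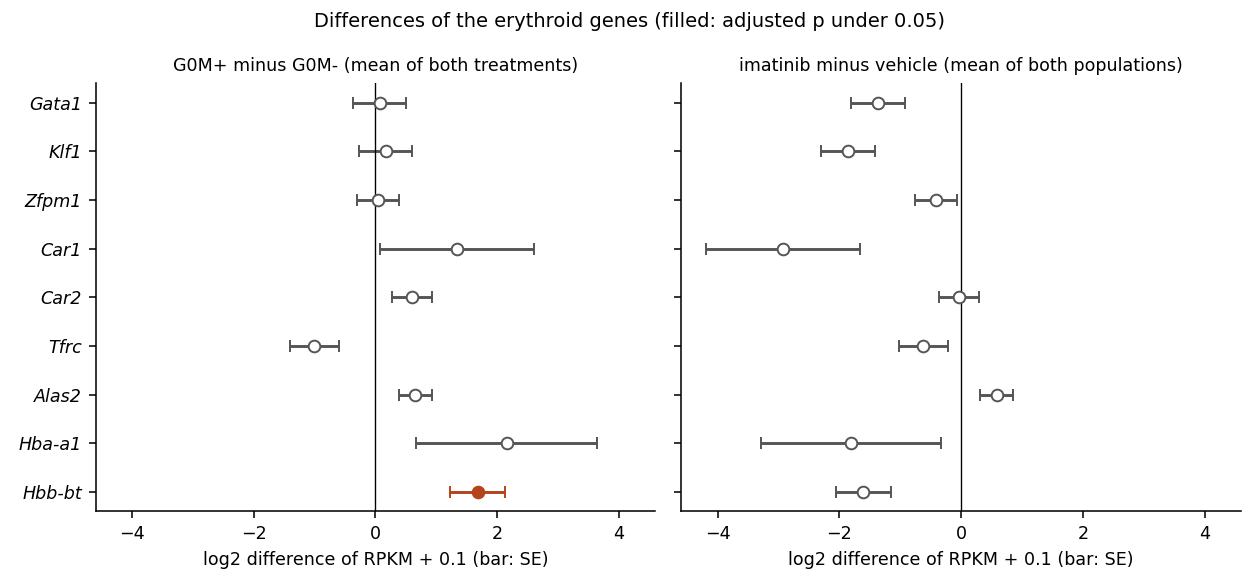
Log2 differences of RPKM + 0.1 (horizontal axes, with SE bars) of the 9 genes between G0M+ and G0M- libraries and between imatinib and vehicle libraries, 6 against 6 each. Hbb-bt, filled, was higher in G0M+ cells by 1.68, and no gene passed the threshold between treatments.

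Between treatments, Hbb-bt differed by -1.61 ± 0.45 averaged over populations (limma, adjusted p = 0.103), by -1.96 ± 0.64 between IMSP and SP cells (limma, adjusted p = 0.468) and by -1.25 ± 0.64 between IMDP and DP cells (limma, adjusted p = 0.290). All 3 IMDP libraries lay below all 3 DP libraries, as did those of Gata1 and Klf1 and as 19.0% of all genes tested did. Klf1 passed the filter on low values only through vehicle libraries. Without IMSP2 the averaged difference of Hbb-bt was -2.06 and passed (limma, adjusted p = 0.0114).

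Over the 9 genes, 0 were called between imatinib and vehicle in the averaged comparison, against 0.854% of all genes. They were also 0 between IMDP and DP cells, against 0.367% of all genes, and 0 between IMSP and SP cells and in the interaction, where 0 of all genes passed and 845 and 937 genes had an unadjusted p under 0.05 (limma). At the unadjusted level, 4 of 9 members passed 0.05 between treatments (Gata1, Klf1, Car1 and Hbb-bt), all with lower values under imatinib, beside 18.0% of all genes in either direction. Klf1 passed the filter on low values only through vehicle libraries, and Car1 reached 1 RPKM under imatinib only in IMDP1. For these genes the direction is a description and not support for a difference. The median log2 difference of the 9 genes between treatments was -1.37, and that of all genes was -0.05. Between populations the median of the 9 was 0.61 and that of all genes -0.13, with 8 of 9 differences above 0. In the interaction the members' median was -0.20 and that of all genes -0.25.

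Libraries with neighbouring library numbers deviated from their group means together, with correlations across genes from 0.43 to 0.65, so each G0M+ library was also compared with its G0M- neighbour. Hbb-bt, Hba-a1 and Alas2 were higher in the G0M+ library of 6 of 6 pairs, as 11.3% of all genes were, with median log2 differences of 1.65, 2.12 and 0.49. For Hba-a1, IMDP2 and IMSP2 held 5 reads and 1 read, and IMDP3 and IMSP3 held 1 and 0. Alas2 differed by 0.08 between IMDP2 and IMSP2. Tfrc was lower in 6 of 6 pairs, as 24.9% of all genes were, by a median of -0.73. Car2 was higher in 5 of 6 pairs, Gata1 and Klf1 in 3 of 6 and Zfpm1 in 2 of 6. Car1 was higher in 3 pairs and had no read in either library of the other 3.

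With these pairs as a block in the fit, 5 of 9 members were called between populations, against 46.9% of all genes. Hbb-bt, Hba-a1 (limma, adjusted p = 6.57e-04), Alas2 (limma, adjusted p = 0.0407) and Car2 (limma, adjusted p = 0.0251) were higher in G0M+ cells, and Tfrc was lower (limma, adjusted p = 7.23e-04). Between IMDP and IMSP cells 3 were called, Hbb-bt, Hba-a1 and Tfrc, against 44.1% of all genes, and between DP and SP cells 1, Hba-a1, against 9.73%. The imatinib part of the Hba-a1 call included pairs with 0 to 5 reads of the gene. The labels do not say whether neighbouring numbers mark a shared mouse.

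**Figure D3:**
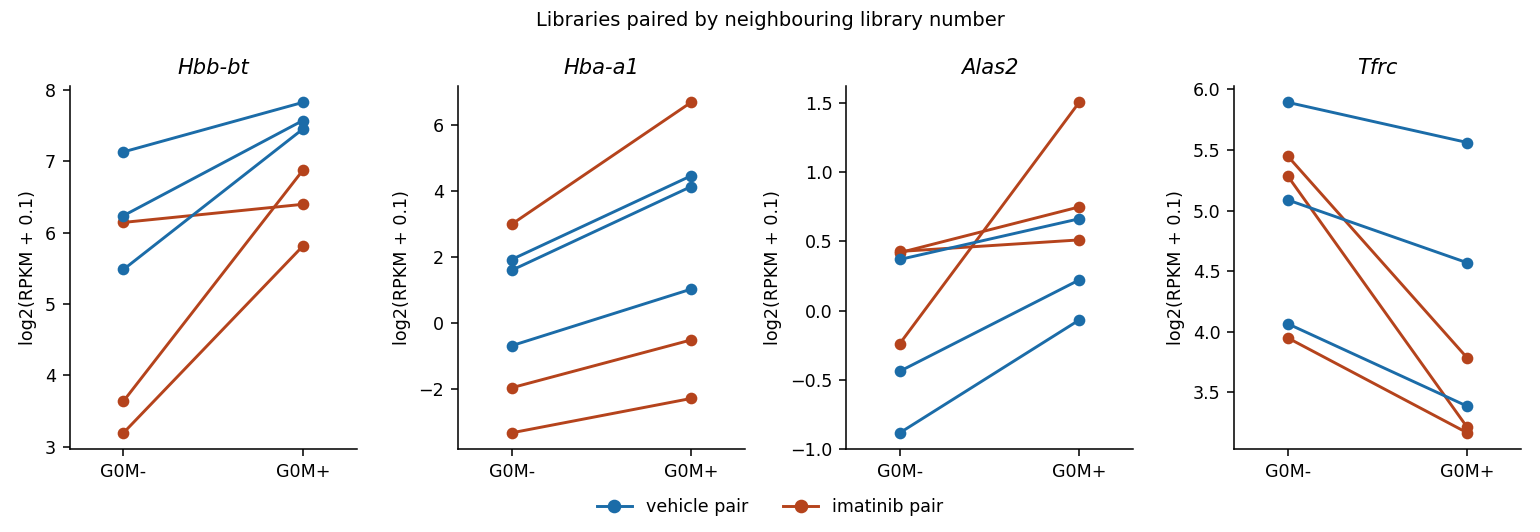
Log2(RPKM + 0.1) of 4 genes (vertical axes) in the G0M- and G0M+ library of each pair of neighbouring library numbers, 3 vehicle and 3 imatinib pairs. Hbb-bt, Hba-a1 and Alas2 were higher and Tfrc lower in the G0M+ library of 6 of 6 pairs.

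The globin genes did not move as 1 block across libraries. In 10 libraries Hbb-bt held 89.5% to 100.0% of the reads of Hbb-bt and Hbb-bs together. In IMDP1 the share was 42.4% (exact Clopper-Pearson 95% interval 40.3% to 44.4%, 2247 reads) and in IMSP1 47.6% (41.7% to 53.5%, 288 reads), and these intervals cover counting error only. SP1 had 976 reads of Hbb-bt and none of Hbb-bs, which allows a share of Hbb-bs of up to 0.307%. IMDP1 and IMSP1 thus stood apart from the other libraries, and they carry neighbouring library numbers.

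The ratio of α- to β-globin set the same 2 libraries apart. The summed RPKM of Hba-a1 and Hba-a2 was 0.75 of that of Hbb-bt and Hbb-bs in IMDP1 and 0.609 in IMSP1, against 0 to 0.122 in the others. Hbb-bs was at 157 RPKM in IMDP1, at 20.2 RPKM in DP1, at 17.9 RPKM in DP2 and at 13.4 RPKM in IMSP1, so that IMSP1 lay below both DP libraries. Hba-a2 was at 103 RPKM in IMDP1 and at 7.88 RPKM in IMSP1, and its highest level in any other library was 3.86 RPKM in DP2. Slc4a1, which encodes the anion exchanger band 3 of the red cell membrane, was at 4.17 RPKM in IMDP1 and at 0.813 RPKM in IMSP1, and its highest level in any other library was 0.660 RPKM in DP2. The part of these libraries in the results was examined by leaving them out. Without both, the averaged difference of Hbb-bt between populations was 1.38 (limma, adjusted p = 0.0847) and that between IMDP and IMSP cells 1.43 (limma, adjusted p = 0.244), so neither call held.

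**Figure D4:**
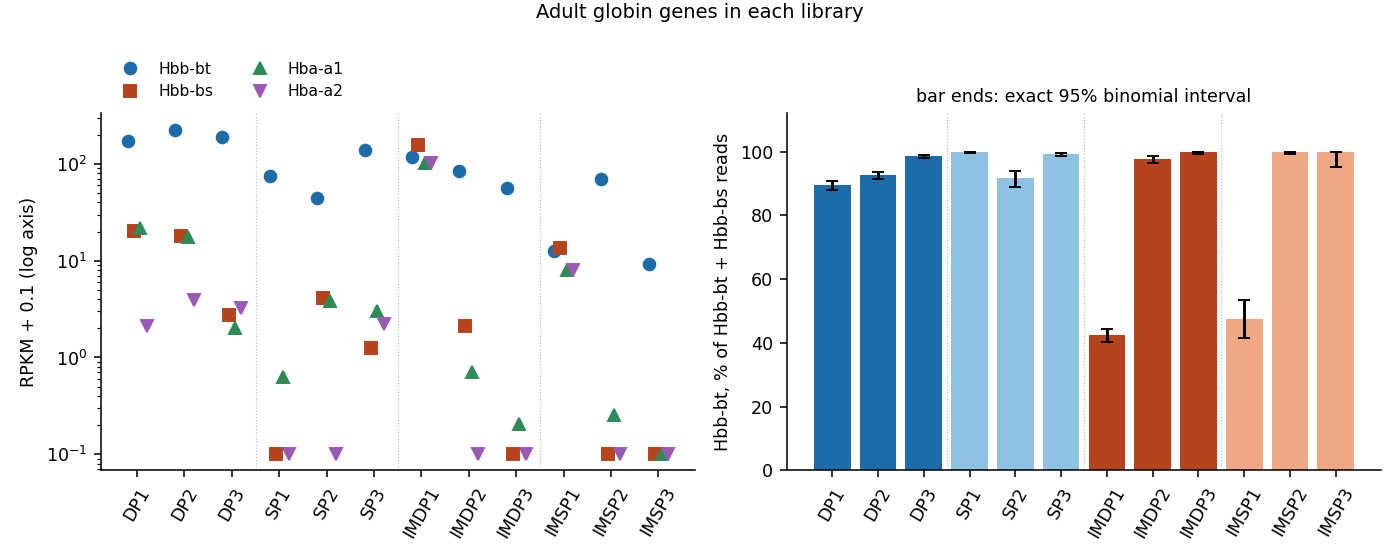
Left, RPKM + 0.1 of 4 adult globin genes on a log axis in the 12 libraries; right, the share of Hbb-bt among reads of Hbb-bt and Hbb-bs in percent, with exact 95% binomial intervals. IMDP1 and IMSP1, at 42.4% and 47.6%, stand apart from the other libraries.

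The genes with patterns most like each member over 12 libraries, by Pearson's r of log2 values, are given as a description of libraries that share their preparation and depth. For Gata1 they were Lysmd3, Cd9 and Dnajb4 (r 0.92 to 0.93), and for Klf1 Tmem184b, Pip4k2c and Slc25a20 (r 0.83 to 0.85). For Zfpm1 they included Reep2 and 4931406P16Rik (r 0.92 to 0.93), and for Car1 Ugcg, Zcchc3 and Rab11fip1 (r 0.84 to 0.88). Car2 was most like Cmtm4, Xrcc5 and Zfand6 (r 0.95 to 0.96), and Tfrc most like Cpd, Mapk3 and Ppid (r 0.94 to 0.95). Alas2 was most like Il18rap, Apbb3 and Tha1 (r 0.84 to 0.91). Hba-a1 was most like Hbb-bs (r 0.96), Slc15a2 and Mfsd12, and Hbb-bt most like Prkd2, Col4a1 and Aff4 (r 0.94 to 0.95). The gene most like Hba-a1 was thus Hbb-bs and not Hbb-bt, whose r with Hba-a1 was 0.45.

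Among 19 further erythroid transcription factors and partners, 18 were tested, and between populations 4 were higher and 1 lower, beside 26.3% of all genes called in either direction. The median log2 difference over the list was 0.27. Tal1, which encodes the SCL factor that binds DNA beside GATA1, was higher in G0M+ cells by 0.55 ± 0.17 (limma, adjusted p = 0.0360). Ldb1, which encodes a bridging protein of the same complex, was higher by 0.31 ± 0.09 (limma, adjusted p = 0.0235). The corepressor gene Cbfa2t3 was higher by 0.54 ± 0.15 (limma, adjusted p = 0.0262) and Bcl11a, whose product silences embryonic globin genes, by 0.61 ± 0.19 (limma, adjusted p = 0.0357). Lyl1, a relative of Tal1, was lower by a log2 difference of -0.46 ± 0.13 (limma, adjusted p = 0.0259). No gene of the list was called between treatments, where 0.854% of all genes were called and the list's median was 0.01.

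Of 18 genes of the erythropoietin receptor and early erythroid progenitors, 12 were tested. Between populations 1 was called, beside 26.3% of all genes, and between IMDP and IMSP cells 1, beside 25.6%. Eng, the TGF-β co-receptor endoglin, was higher in G0M+ cells by 0.63 ± 0.21 (limma, adjusted p = 0.0449), and Minpp1, a phosphatase of inositol polyphosphates, was lower in IMDP than in IMSP cells, with a log2 difference of -0.64 ± 0.17 (limma, adjusted p = 0.0203). Epor, the erythropoietin receptor gene, did not pass the filter, with 1.62 RPKM in DP1 and 0.0796 RPKM in IMSP3 as its extremes. None of the 12 was called between treatments, where 0.854% of all genes were.

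Of 16 further heme synthesis genes, 15 were tested, and 2 were lower in G0M+ cells and none higher, beside the same 26.3% of all genes. The list's median between populations was -0.08. Alas1, the form of the first enzyme used outside the red lineage, ranged from 1.35 RPKM in DP2 to 33.1 RPKM in IMSP1 and was thus above Alas2 in every library.

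Of 14 iron genes, 13 were tested, and between populations 1 was higher and 3 lower, again beside 26.3% of all genes called. Slc40a1, which encodes the iron exporter ferroportin, was higher in G0M+ cells by 1.94 ± 0.63 (limma, adjusted p = 0.0418), at 0 to 1.48 RPKM. Steap3, a ferrireductase that works with the transferrin receptor, was lower by a log2 difference of -0.68 ± 0.18 (limma, adjusted p = 0.0205). Pcbp1 and Pcbp2, whose products are RNA-binding proteins that also carry iron, were lower, Pcbp1 by -0.42 ± 0.12 (limma, adjusted p = 0.0224) and Pcbp2 by -0.48 ± 0.10 (limma, adjusted p = 0.00621). Between IMDP and IMSP cells 3 of the 13 iron genes tested were lower and none higher. Of all genes, 25.6% were called in this comparison, and 2342 of 10072 were called lower. Among the iron genes, Pcbp2 had a difference of -0.77 ± 0.14 (limma, adjusted p = 0.00381).

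Genes of the red cell membrane and cytoskeleton were scarce, and 6 of 17 passed the filter. None of these was called in any comparison. Of all genes, 26.3% were called between populations, 25.6% between IMDP and IMSP cells and 0.854% between treatments. The membrane genes with the highest means, Kcnn4 and Slc2a1, differed between populations by 0.03 ± 0.10 and -0.11 ± 0.13 (limma, adjusted p = 0.832 and 0.531). DP1 held the highest value of 8 of the 17 genes, among them Rhag (3.69 RPKM), Kel (2.09 RPKM) and Ank1 (1.57 RPKM), and of 3 of the 9 members, Gata1, Klf1 and Car1. IMDP1 held the highest value of another 3 members, Car2, Alas2 and Hba-a1. Of 12 other carbonic anhydrases 4 were tested and none was called, beside the same shares of all genes. Car13 and Car9 differed between populations by 0.40 ± 0.42 and -0.27 ± 0.16 (limma, adjusted p = 0.497 and 0.226). Of 8 other globin genes Hba-a2 and Hbb-bs were tested and not called, beside the same shares of all genes. Their differences between populations were 2.33 ± 1.75 and 3.14 ± 1.76 (limma, adjusted p = 0.332 and 0.198), and the embryonic genes Hbb-y, Hbb-bh1 and Hba-x did not exceed 0.112 RPKM.

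Markers of other lineages that use GATA1 or share the tissue were counted in the same way, beside the 26.3% of all genes called between populations. Of 12 mast cell and basophil markers 8 were tested and 4 were higher in G0M+ cells, with summed levels of 91.6 to 413 RPKM in DP, 18.7 to 47.4 in SP, 22.7 to 217 in IMDP and 9.46 to 31.9 in IMSP cells. Of this list, Tpsab1 was at 0 in all libraries, and Cma1 in all 6 G0M- libraries and IMDP3. Cma1 and Prss34 reached 1 RPKM only in G0M+ libraries and passed the filter through them, so their part of the count is a description. Of 12 megakaryocyte markers 10 were tested and 1, Ppbp, was higher in G0M+ cells, with sums of 45.5 to 158 RPKM in DP, 22.5 to 63.0 in SP, 28.7 to 137 in IMDP and 15.1 to 77.1 in IMSP cells. Ppbp too reached 1 RPKM only in G0M+ libraries and passed the filter through them. The von Willebrand factor gene Vwf was at 24.1 RPKM in IMDP2 and 17.7 RPKM in IMSP2, the libraries with the most Gata1 under imatinib, and at 0.251 to 0.748 RPKM in the other imatinib libraries.

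Of 12 macrophage markers 6 were tested and 5 were higher in G0M+ cells, with sums of 7.01 to 18.7 RPKM in DP, 1.75 to 2.35 in SP, 11.8 to 17.0 in IMDP and 1.98 to 3.07 in IMSP cells. C1qc, Hmox1 and Axl reached 1 RPKM only in G0M+ libraries and passed the filter through them. Their part of this count is a description and not support for a difference. The C1q genes C1qa, C1qb and C1qc were at 0 in all 6 G0M- libraries. Of 12 neutrophil and monocyte markers 8 were tested and 3 were lower in G0M+ cells, with sums of 100.0 to 1520 RPKM in DP, 422 to 2751 in SP, 117 to 346 in IMDP and 570 to 2375 in IMSP cells, while of 12 lymphoid markers 4 were tested and none was called between populations and 1, Dntt, was higher under imatinib by 3.61 (limma, adjusted p = 0.0497). Of 8 genes that check the sort and the cell cycle, Mki67, Top2a, Ccnb1 and Cdk1 were lower and Ly6a, which encodes Sca-1, was higher in G0M+ cells. The part of these cells or of the cell cycle in the differences of the erythroid genes was not tested.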

How the data were processed

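RNA-seq was made from 100 sorted cells a library. The authors deposited RPKM values, 1 file a library; their methods name CLC Genomics Workbench and their reporting summary HISAT2 and featureCounts, with reads mapped to GRCm38/mm10, so which mapper made the files was not settled. How reads that fit 2 globin copies were assigned was not given in the sources used here.

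Whole reads were recovered from the steps of the RPKM values for 17734 of 17735 features with a value (tolerance 0.03 reads), and listed features held 25.73% to 36.98% of the reads. Numbered copies were summed (1934 of 46103 genes). A gene was kept if 3 or more libraries had it at 1 RPKM or higher, and was then tested by limma 3.58.1 in R 4.3.3 with an intensity trend on log2(RPKM + 0.1), with 4 group means in 1 fit. The fit and the recovery of reads were tested on simulated data.

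The members and lists were chosen with earlier results of these data known. The text names the 9 members, the Hba-a2 and Hbb-bs copies, up to 4 genes of each list with the smallest adjusted p past the threshold (otherwise the 2 with the highest mean RPKM) and the 3 genes most like each member. Tal1, Epor, Alas1, Rhag, Kel, Ank1, Slc4a1, Vwf and the markers named for their zeros, and Ly6a, were named after their values were seen. Ahsp was not analysed here, and some genes that this rule would name are not reported here.

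Replicate numbers paired the imatinib libraries (correlations of deviations 0.43, 0.65 and 0.46) but not the vehicle libraries (-0.30 to -0.10), where neighbouring library numbers did (0.50 to 0.52). Alternatives were other pseudocounts and filters, fits of 2 groups, blocks by replicate and by library number, median scaling, limma-voom on the recovered reads, the highest copy, summed globin copies and each library left out.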

Additional observations from a re-analysis of the deposited data

How the results depend on the processing

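Between populations averaged over treatments, 1 of 9 members was called, 0 to 2 when 1 library was left out, 5 with neighbouring library numbers as a block and 2 after median scaling (Hbb-bt and Alas2), and 0 without both IMDP1 and IMSP1, a choice made after seeing the data. Of all genes, 26.3% were called in the main fit, 46.9% with the block, 23.6% after median scaling and 20.6% without IMDP1 and IMSP1. Between IMDP and IMSP cells the 1 call became 0 with no filter on low values, 3 with the library-number block, 0 to 2 when 1 library was left out and 0 without IMDP1 and IMSP1. The share of all genes was 25.6% in the main fit, 12.8% with no filter, 44.1% with the block and 15.7% without IMDP1 and IMSP1. Between DP and SP cells 1 member was called with the library-number block, against 9.73% of all genes. Between imatinib and vehicle the count of 0 became 0 to 2 when 1 library was left out, and 2 without IMDP2 and IMSP2, also chosen after seeing the data (Gata1 and Hbb-bt in both cases). Without IMDP2 and IMSP2, 3.66% of all genes were called, against 0.854% in the main fit. The members' median between IMSP and SP cells, -1.18, ran from -1.22 to -0.43 when 1 library was left out, with -0.43 without IMSP3.

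Some differences changed sign when 1 library was left out. Between populations Gata1 ran from -0.26 to 0.45, Klf1 from -0.13 to 0.43 and Zfpm1 from -0.15 to 0.32. Car2 ran from -0.27 to 0.27 between treatments, and Hba-a1, whose difference between IMDP and IMSP cells was 2.06, from -0.63 to 3.93. No other printed difference of a member changed sign under the alternatives run.

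The replicate number as a block paired the imatinib libraries only, and with this replicate block 1 member was called between populations and 1 between IMDP and IMSP cells, Hbb-bt in both. Depth limits Gata1, Klf1, Alas2, Car1 and Hba-a1, which had under 20 reads in at least 1 library.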
